A study of Homo sapiens with 6 samples.

Results

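The genes described here build the kinetochore and centromere or run the spindle checkpoint. The list held 40 genes, chosen by symbol and known function with the log2 differences between these same arrays already known, so counts and medians over it are descriptions. Probe sets annotated with exactly 1 of these symbols, or its older alias, numbered 39 of the 33297 on the array, and they stood for 38 of the 18417 genes that have such a probe set. SKA2 had 2 probe sets. CENPA and PMF1 were found only on probe sets that carry several symbols and were not analysed here. Total RNA came from U2OS, an established human osteosarcoma cell line grown in DMEM with 10% FCS. The treatment protocol names the line U2OS, while the other labels spell it U20S or U2O2. Cells received siRNA that targets H3.Y alone, siRNA for H3.X together with H3.Y (the combined knockdown), or, as the control, siRNA for luciferase, a firefly gene that human cells lack. They were transfected 2 times and harvested 4 days after transfection, and each of the 3 groups had 2 arrays. H3.X and H3.Y are primate-specific variants of histone H3, and 0 probe sets were named for their genes, so the extent of each knockdown was not analysed here. Whether the combined group received a pool of siRNAs is not stated in the labels. The 2 arrays of a group are labelled as biological replicates, with no word on separate cultures. P-values therefore measure the spread between these arrays, and their number limits the precision.

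Array medians lay between 5.10 and 5.14 log2 units. Across all probe sets, arrays of the same group correlated with r of 0.986 to 0.992 and arrays of different groups with r of 0.978 to 0.987. Of 10 mesenchymal and osteoblast markers, VIM, SPARC, CD44, COL1A1 and CDH2 had group means between 8.30 and 11.44 log2 units, and COL1A2, RUNX2, CDH11, TWIST1 and PRRX1 between 4.85 and 6.17, nearer the array medians. COL1A1 was called higher in the combined knockdown than with luciferase siRNA. At an unadjusted p under 0.05, 5 of the 10 were higher there (7.16% of all probe sets) and 0 lower (8.12%). Of 10 epithelial marker probe sets, 2 were called higher in that comparison, both of EPCAM, by log2 2.25 and 2.73. At an unadjusted p under 0.05, 5 of the 10 were higher and 0 lower, with CLDN4 at 0.70, CDH1 at 0.59 and KRT14 at 0.53. After H3.Y siRNA, 0 markers of either list were called by limma against luciferase siRNA. Epithelial probe sets at an unadjusted p under 0.05 were 2 lower (7.66% of all) and 0 higher (6.21%), namely EPCAM on 1 probe set at -1.22 and CLDN4 at -0.81. Mesenchymal ones were 1 lower, COL1A1 at -0.52, and 1 higher, CD44 at 0.59. The 8 blood markers had group means from 1.93 (PTPRC) to 5.32 (SPI1), with 0 called by limma in either comparison with luciferase siRNA and 0 at an unadjusted p under 0.05. Between the combined knockdown and H3.Y siRNA, 4 epithelial probe sets were called higher in the former (both of EPCAM, KRT14 and CLDN4). So were 3 mesenchymal ones (COL1A1, SPARC and CDH2), beside 2.74% of all probe sets. The part of these markers in the values below was not tested.

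The kinetochore is the protein assembly that ties a chromosome to spindle microtubules. Its inner layer, the constitutive centromere-associated network (CCAN), sits on nucleosomes that contain the histone H3 variant CENP-A. Its outer layer, formed by KNL1, the MIS12 complex and the NDC80 complex, binds microtubules and also carries the spindle checkpoint. The checkpoint holds back the anaphase-promoting complex until every kinetochore is attached. Transcripts of many of these genes rise towards mitosis in dividing cells, so their level in a bulk sample also follows the share of cells in that phase. On arrays of bulk RNA, fewer such cells and less RNA per cell cannot be told apart.

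After H3.Y siRNA, 2 of the 39 probe sets were called lower than with luciferase siRNA and 0 higher, at an adjusted p under 0.05 in limma over all probe sets. Both belonged to the outer kinetochore, namely NSL1 and ZWINT. Over the whole array 0.279% of probe sets were called, 0.195% lower and 0.0841% higher. With dim probe sets left out, the same 2 were called of 37 tested, beside 3.24% of all probe sets tested. The same 2 were at least 2-fold lower, beside 1.26% of all probe sets. At an unadjusted p under 0.05, 22 were lower (7.66% of all probe sets) and 0 higher (6.21%). The median difference of the 39 was log2 -0.49, beside 0.02 over all probe sets, and 33 lay below 0 (46.6% of all). Both H3.Y siRNA arrays lay below both luciferase arrays for 28 of the 39, beside 20% of all probe sets, and above them for 1, beside 21.7%.

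In the combined knockdown, 6 of the 39 were called lower than with luciferase siRNA and 0 higher. They were CENPH of the CCAN, KNL1, NSL1 and NUF2 of the outer layer, the checkpoint gene MAD2L1 and 1 probe set of SKA2. Over the whole array 1.84% were called, 0.985% lower and 0.859% higher. At least 2-fold lower were 7, beside 1.35% of all probe sets. At an unadjusted p under 0.05, 23 were lower (8.12% of all) and 0 higher (7.16%). The median difference was log2 -0.51, beside 0.00 over all probe sets, and 34 lay below 0 (49.8% of all). Both combined knockdown arrays lay below both luciferase arrays for 26 of the 39, beside 24% of all probe sets, and above them for 2, beside 23.4%. The 2 comparisons share the luciferase arrays, so they are not independent of each other.

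The calls rest on few arrays. For H3.Y siRNA, 0 of the 39 were called in limma without luciferase replicate 1, without luciferase replicate 2, without H3.Y replicate 1, or without either of the combined knockdown arrays, which enter the fit only through the shared spread. For the combined knockdown, all calls were lost without luciferase replicate 1 or 2 or without combined knockdown replicate 1 or 2. In these 9 fits the count of calls over the whole array was also 0, except for 4 probe sets without H3.Y replicate 1.

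**Figure D1:**
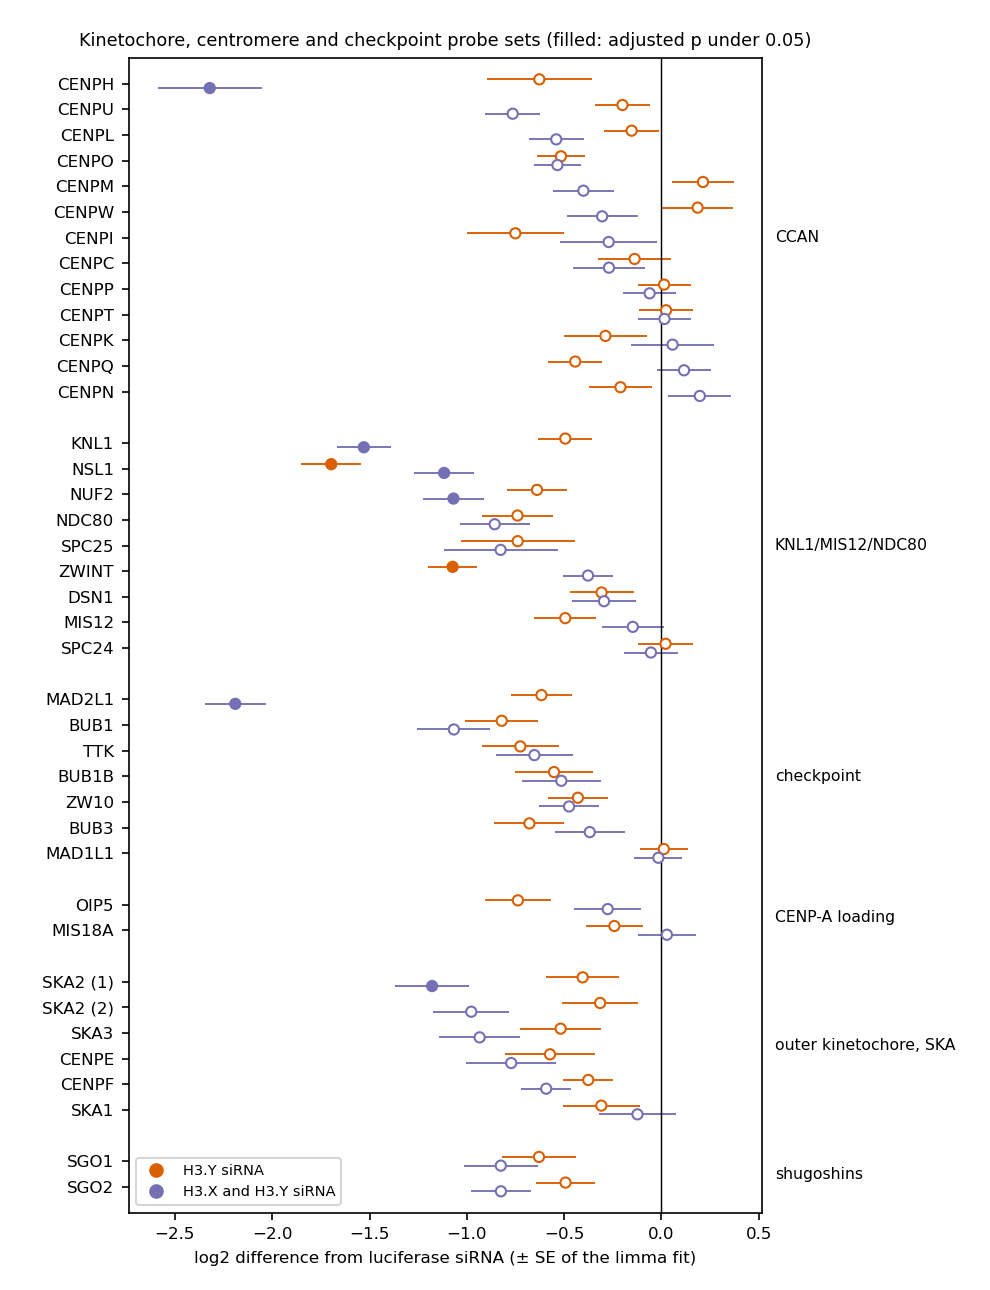
Log2 difference from luciferase siRNA (x axis, ± SE of the limma fit on 6 arrays) for each of the 39 probe sets, by complex, after H3.Y siRNA (orange) and in the combined knockdown (purple). Filled points passed an adjusted p of 0.05. Most points lie left of 0, CENPH and MAD2L1 reach below -2 in the combined knockdown, and MAD1L1, SPC24, CENPT and CENPP lie at 0 within their errors in both.

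Promoter sequences were looked up for all measured members, and 31 of the 38 genes matched the RefSeq table of build GRCh38.p14. CENPH, CENPL, CENPM, KNL1, BUB3, TTK and MIS18A were not matched. The windows of the 5 matched genes that were called in any comparison are shown because these genes moved in the knockdowns. Each runs 5′ to 3′ on the gene's strand from 120 bases before to 30 bases after the annotated start. Capitals mark matches, on either strand, to 3 motifs known from cell cycle promoters. They are the CHR element (TTTGAA or TTCGAA), the CCAAT box (CCAAT) and an E2F-type site (TTCCCGC or TTGGCGC or TTCGCGC or TTGCCGC). None of the marked matches overlap each other.
MAD2L1, chr4:120066819-120066968, minus strand: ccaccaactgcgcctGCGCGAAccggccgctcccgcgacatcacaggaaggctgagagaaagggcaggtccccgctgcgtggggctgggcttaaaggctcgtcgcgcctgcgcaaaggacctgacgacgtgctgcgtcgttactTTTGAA
NSL1, chr1:212791748-212791897, minus strand: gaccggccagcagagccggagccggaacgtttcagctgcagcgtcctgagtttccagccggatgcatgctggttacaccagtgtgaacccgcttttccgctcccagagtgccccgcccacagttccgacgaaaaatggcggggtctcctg
NUF2, chr1:163321834-163321983, plus strand: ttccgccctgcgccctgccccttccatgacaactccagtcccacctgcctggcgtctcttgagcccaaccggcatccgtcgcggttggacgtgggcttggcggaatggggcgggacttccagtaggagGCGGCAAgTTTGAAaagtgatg
SKA2, chr17:59155157-59155306, minus strand: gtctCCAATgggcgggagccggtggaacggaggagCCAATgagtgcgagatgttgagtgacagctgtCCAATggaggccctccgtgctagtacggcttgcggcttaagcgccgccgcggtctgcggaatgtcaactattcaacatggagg
ZWINT, chr10:56361230-56361379, minus strand: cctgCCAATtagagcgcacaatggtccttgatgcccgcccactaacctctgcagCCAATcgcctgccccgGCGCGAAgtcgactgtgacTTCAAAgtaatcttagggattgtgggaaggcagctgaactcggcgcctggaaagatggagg
MAD2L1 and NUF2 each held 1 CHR match and 1 E2F-type match, ZWINT held 1 CHR, 2 CCAAT and 1 E2F-type match, and SKA2 held 3 CCAAT matches. NSL1 held 0 matches in its window, which says only that these letters are not in it.

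Over the full table windows, from 250 bases before to 50 after the start, a CHR match was found in 17 of the 31 member genes (54.8%), beside 19.5% of the 27305 genes in the table. A CCAAT box was found in 19 (61.3%, beside 39.7%) and an E2F-type site in 11 (35.5%, beside 15.3%). CHR and CCAAT stood together in 11 member genes (35.5%, beside 7.85%). In the full window of ZW10 a CCAAT and an E2F-type match overlap. Genes with several promoters in the table were counted once if any held the motif. The 17 genes with a CHR match had a median difference of log2 -0.55 after H3.Y siRNA and -0.53 in the combined knockdown. The 14 genes without one had -0.36 and -0.21. The 19 genes with a CCAAT box had -0.43 and -0.38 and the 12 without -0.54 and -0.52, the other way round. The 11 genes with an E2F-type site had -0.49 and -0.38 and the 20 without -0.45 and -0.52. Those with the site were the lower only after H3.Y siRNA. For CHR the ranges overlapped, since NSL1 and SKA2 lack a CHR match and CENPW and CENPN have one. These shares and medians are descriptions with no test.

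Among the 6 groups of members, the outer layer had the most calls. It had 2 of 9 probe sets called lower after H3.Y siRNA (0.195% of all) and 3 of 9 in the combined knockdown (0.985%). Its median differences were log2 -0.64 and -0.83. The group of CENPE, CENPF and the SKA genes had -0.39 and -0.85, and the shugoshins -0.56 and -0.83. NSL1, a subunit of the MIS12 complex that joins the inner to the outer kinetochore, read 6.67 and 6.78 log2 units after H3.Y siRNA and 7.26 and 7.35 in the combined knockdown, against 8.27 and 8.58 with luciferase siRNA. The groups did not overlap. NSL1 fell 3.24-fold after H3.Y siRNA (log2 -1.70 ± 0.15 SE, n = 2 arrays per group, limma adjusted p = 0.029) and 2.17-fold in the combined knockdown (-1.12 ± 0.15, limma adjusted p = 0.029). It was the only member called in both comparisons with luciferase siRNA. Of the other MIS12 complex subunits, MIS12 differed by -0.49 after H3.Y siRNA and -0.15 in the combined knockdown, and DSN1 by -0.31 after H3.Y siRNA and -0.30 in the combined knockdown, none of them called.

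KNL1, the scaffold that docks checkpoint proteins on the kinetochore, read 7.40 and 7.18 log2 units after H3.Y siRNA, 6.25 and 6.25 in the combined knockdown, and 7.73 and 7.84 with luciferase siRNA. It fell 2.89-fold in the combined knockdown (log2 -1.53 ± 0.14 SE, n = 2 per group, limma adjusted p = 0.015), and differed by -0.49 ± 0.14 after H3.Y siRNA, which was not called. ZWINT, a partner of KNL1 at the outer kinetochore, showed the other order. It read 7.46 and 7.52 after H3.Y siRNA, 8.25 and 8.13 in the combined knockdown, and 8.55 and 8.58 with luciferase siRNA. ZWINT fell 2.10-fold after H3.Y siRNA (-1.07 ± 0.13, limma adjusted p = 0.043) and differed by -0.38 ± 0.13 in the combined knockdown, not called. The ZWINT call after H3.Y siRNA was also lost with quantile normalization again and with only the 4 arrays compared.

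In the NDC80 complex, which grips the microtubule, NUF2 read 8.17 and 8.17 log2 units after H3.Y siRNA, 7.58 and 7.91 in the combined knockdown, and 8.75 and 8.87 with luciferase siRNA. The groups did not overlap. NUF2 fell 2.10-fold in the combined knockdown (log2 -1.07 ± 0.16 SE, n = 2 per group, limma adjusted p = 0.032). Its partner NDC80 differed by -0.74 ± 0.18 after H3.Y siRNA and -0.86 ± 0.18 in the combined knockdown, with limma adjusted p of 0.16 and 0.081. SPC25 differed by -0.74 ± 0.29 after H3.Y siRNA and -0.83 ± 0.29 in the combined knockdown, neither called, and its luciferase arrays stood at 7.30 and 8.02. SPC24, which pairs with SPC25 in the same complex, differed by 0.02 after H3.Y siRNA and -0.05 in the combined knockdown, with 95% intervals of -0.32 to 0.36 and -0.39 to 0.28.

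**Figure D2:**
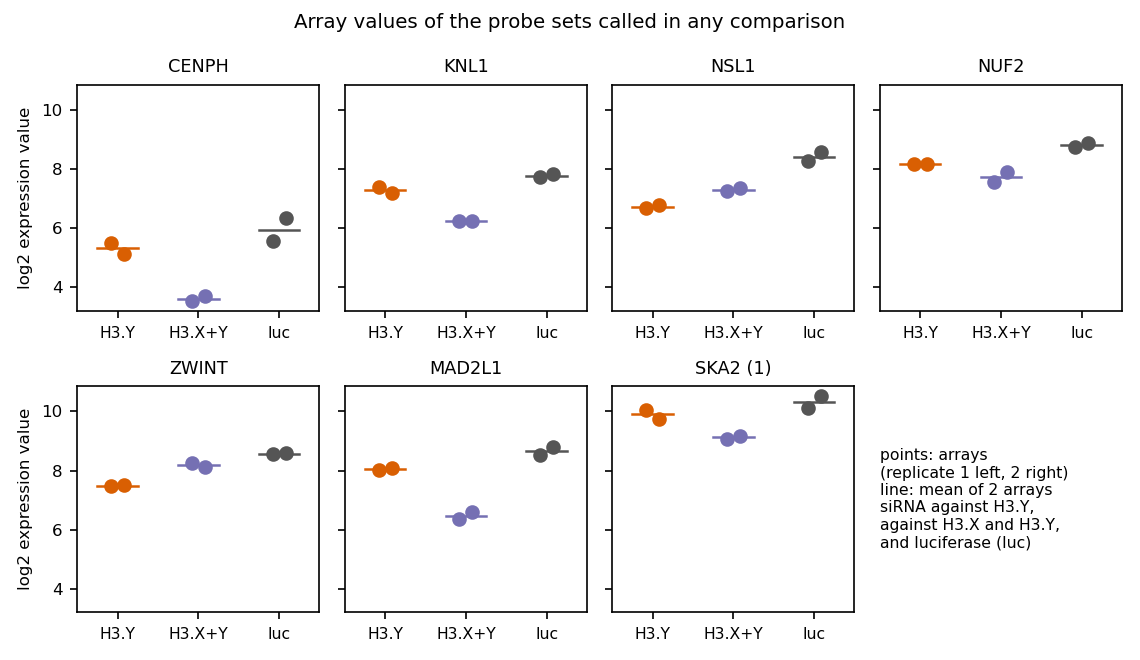
Log2 expression value on each array (points, replicate 1 left and 2 right) with the mean of 2 arrays (line) for the 7 probe sets called in any comparison, after H3.Y siRNA, in the combined knockdown (H3.X+Y) and with luciferase siRNA (luc). CENPH, KNL1, NUF2, MAD2L1 and SKA2 are lowest in the combined knockdown, while NSL1 and ZWINT are lowest after H3.Y siRNA.

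Of 7 checkpoint genes, 6 were below luciferase after H3.Y siRNA (46.6% of all probe sets) and 7 in the combined knockdown (49.8%). Their median differences were log2 -0.62 and -0.51. MAD2L1, which encodes the protein that binds and blocks the anaphase activator CDC20, read 8.02 and 8.08 log2 units after H3.Y siRNA, 6.37 and 6.59 in the combined knockdown, and 8.54 and 8.80 with luciferase siRNA. The groups did not overlap, and the combined knockdown stood lowest. MAD2L1 fell 4.56-fold in the combined knockdown (-2.19 ± 0.16 SE, n = 2 per group, limma adjusted p = 0.013), the 12th lowest difference of the 33297 probe sets. After H3.Y siRNA it differed by -0.62 ± 0.16 (limma adjusted p = 0.17). MAD1L1, which brings MAD2 to unattached kinetochores, differed by 0.01 after H3.Y siRNA and -0.02 in the combined knockdown, with 95% intervals of -0.29 to 0.31 and -0.31 to 0.28.

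BUB1, a kinase that marks centromeric histone H2A for shugoshin, read 7.85 and 8.24 log2 units after H3.Y siRNA, 7.71 and 7.89 in the combined knockdown, and 8.73 and 9.004 with luciferase siRNA. Both knockdowns lay below luciferase on every array. The difference was log2 -0.82 ± 0.19 after H3.Y siRNA (limma adjusted p = 0.15) and -1.07 ± 0.19 in the combined knockdown, just outside the threshold (limma adjusted p = 0.052). TTK, the MPS1 kinase that starts checkpoint signalling, differed by -0.73 after H3.Y siRNA and -0.65 in the combined knockdown. BUB1B, which encodes BubR1 of the mitotic checkpoint complex, differed by -0.55 after H3.Y siRNA and -0.51 in the combined knockdown. BUB3, the adaptor that binds KNL1, differed by -0.68 after H3.Y siRNA and -0.37 in the combined knockdown, and ZW10, which helps bring dynein to kinetochores, by -0.43 after H3.Y siRNA and -0.47 in the combined knockdown. Both arrays of each knockdown lay below both luciferase arrays for these 4 genes, and none was called. Over all probe sets, that order held for 20% after H3.Y siRNA and for 24% in the combined knockdown.

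The 13 CCAN probe sets had median differences of log2 -0.20 after H3.Y siRNA and -0.27 in the combined knockdown. In each, 9 lay below 0, beside 46.6% and 49.8% of all probe sets. Of the 13, 0 and 1 were called, beside 0.279% and 1.84% of all. CENPH, of the CENP-H/I/K/M module, read 5.49 and 5.14 log2 units after H3.Y siRNA, 3.55 and 3.69 in the combined knockdown, and 5.56 and 6.33 with luciferase siRNA. CENPH fell in the combined knockdown by 2.32 ± 0.27 on the log2 scale (SE, n = 2 per group, limma adjusted p = 0.021). Its values there lay below the array medians. No measure of background was analysed here, so the size of this difference is approximate. A filter on dim probe sets left CENPH out, which ends this call and the one against H3.Y siRNA. After H3.Y siRNA it differed by -0.63 ± 0.27 (limma adjusted p = 0.38), and by -1.01 without luciferase replicate 1 and -0.24 without luciferase replicate 2.

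None of the 3 other measured genes of that module was called. CENPI differed by log2 -0.75 ± 0.25 after H3.Y siRNA and -0.27 ± 0.25 in the combined knockdown, CENPK by -0.29 after H3.Y siRNA and 0.06 in the combined knockdown, and CENPM by 0.21 after H3.Y siRNA and -0.40 in the combined knockdown. In the module of CENP-O, P, Q and U, CENPU read 5.94 and 5.91 log2 units after H3.Y siRNA, 5.29 and 5.43 in the combined knockdown, and 6.02 and 6.23 with luciferase siRNA. It differed by -0.20 ± 0.14 after H3.Y siRNA and -0.76 ± 0.14 in the combined knockdown (limma adjusted p = 0.61 and 0.061). CENPO differed by -0.52 after H3.Y siRNA and -0.53 in the combined knockdown, CENPQ by -0.44 after H3.Y siRNA and 0.12 in the combined knockdown, and CENPP by 0.01 after H3.Y siRNA and -0.06 in the combined knockdown.

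CENPC, which binds CENP-A nucleosomes directly, differed by log2 -0.14 after H3.Y siRNA and -0.27 in the combined knockdown. CENPT, which recruits NDC80 to the centromere, differed by 0.02 after H3.Y siRNA and 0.02 in the combined knockdown, with 95% intervals of -0.31 to 0.36 and -0.32 to 0.35. Its partner CENPW differed by 0.19 after H3.Y siRNA and -0.30 in the combined knockdown. CENPN, a reader of CENP-A nucleosomes, differed by -0.21 after H3.Y siRNA and 0.20 in the combined knockdown, and its partner CENPL by -0.15 after H3.Y siRNA and -0.54 in the combined knockdown. None of these 5 genes was called.

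Of the SKA complex, which follows shrinking microtubule ends, SKA2 read 10.05 and 9.75 log2 units after H3.Y siRNA, 9.07 and 9.18 in the combined knockdown, and 10.10 and 10.51 with luciferase siRNA on its first probe set. That probe set fell 2.26-fold in the combined knockdown (-1.18 ± 0.19 SE, n = 2 per group, limma adjusted p = 0.042). The second SKA2 probe set read 10.29 and 9.77 after H3.Y siRNA, 9.33 and 9.41 in the combined knockdown, and 10.28 and 10.41 with luciferase siRNA. It differed by -0.98 ± 0.20 in the combined knockdown and was not called (limma adjusted p = 0.072). SKA3 read 7.66 and 7.49 after H3.Y siRNA, 6.92 and 7.40 in the combined knockdown, and 7.94 and 8.26 with luciferase siRNA, and differed by -0.52 ± 0.21 after H3.Y siRNA and -0.93 ± 0.21 in the combined knockdown. SKA1 differed by -0.31 after H3.Y siRNA and -0.12 in the combined knockdown. CENPE, the plus-end kinesin, differed by -0.57 after H3.Y siRNA and -0.77 in the combined knockdown, and CENPF, a large protein of the fibrous corona, by -0.38 after H3.Y siRNA and -0.59 in the combined knockdown, none of them called.

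The shugoshins guard centromeric cohesin. SGO1 read 6.74 and 6.62 log2 units after H3.Y siRNA, 6.40 and 6.57 in the combined knockdown, and 7.07 and 7.55 with luciferase siRNA, and differed by -0.63 ± 0.19 after H3.Y siRNA and -0.83 ± 0.19 in the combined knockdown. SGO2 read 6.45 and 6.63 after H3.Y siRNA, 6.19 and 6.22 in the combined knockdown, and 6.89 and 7.17 with luciferase siRNA, and differed by -0.49 ± 0.15 after H3.Y siRNA and -0.82 ± 0.15 in the combined knockdown (n = 2 per group). Neither gene overlapped with luciferase in either knockdown and neither was called. Of all probe sets, 20% lay wholly below luciferase after H3.Y siRNA and 24% in the combined knockdown. The limma adjusted p was 0.22 after H3.Y siRNA and 0.0997 in the combined knockdown for SGO1, and 0.23 and 0.059 for SGO2.

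OIP5 and MIS18A encode parts of the Mis18 complex, which licenses centromeres for new CENP-A. OIP5 read 6.09 and 6.29 log2 units after H3.Y siRNA, 6.53 and 6.77 in the combined knockdown, and 6.78 and 7.07 with luciferase siRNA. It differed by -0.74 ± 0.17 after H3.Y siRNA and -0.28 ± 0.17 in the combined knockdown (n = 2 per group, limma adjusted p = 0.15 and 0.56). MIS18A read 9.26 and 9.42 after H3.Y siRNA, 9.49 and 9.74 in the combined knockdown, and 9.56 and 9.61 with luciferase siRNA. It differed by -0.24 ± 0.15 after H3.Y siRNA and 0.03 ± 0.15 in the combined knockdown, and the second difference was -0.10 without combined knockdown replicate 2.

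The combined knockdown was set directly against H3.Y siRNA to ask where the 2 knockdowns differ. Of the 39 probe sets, 3 were called lower and 1 higher in the combined knockdown, beside 1.92% lower and 2.74% higher (4.67% in all) over the whole array. At least 2-fold lower were the same 3, beside 1.41% of all probe sets. At an unadjusted p under 0.05, 10 were lower (9.28% of all) and 5 higher (9.72%). MAD2L1 was 2.98-fold lower (log2 -1.57 ± 0.16 SE, n = 2 per group, limma adjusted p = 0.0082), CENPH lower, with the limit on its low values given above (-1.69 ± 0.27, limma adjusted p = 0.026) and KNL1 2.05-fold lower (-1.04 ± 0.14, limma adjusted p = 0.018). ZWINT was 1.62-fold higher (0.70 ± 0.13, limma adjusted p = 0.037). The arrays of the 2 knockdowns did not overlap for these 4 genes. Over the 39, both combined knockdown arrays lay below both H3.Y siRNA arrays for 15 (25.4% of all probe sets) and above them for 10 (21.2%). The median difference was log2 -0.08, beside -0.03 over all probe sets, with 25 below 0 (54.4% of all).

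Of the members not called, 5 had the smallest adjusted p. NSL1 differed by 0.58 ± 0.15 between the combined knockdown and H3.Y siRNA (limma adjusted p = 0.098) and CENPQ by 0.56 ± 0.14 (limma adjusted p = 0.0825). SKA2 differed by -0.77 ± 0.19 on its first probe set (limma adjusted p = 0.080), CENPM by -0.61 ± 0.16 (limma adjusted p = 0.088) and CENPU by -0.56 ± 0.14 (limma adjusted p = 0.086). For BUB1B, TTK, ZW10, CENPO and DSN1 the difference lay between -0.05 and 0.07, with 95% intervals within -0.45 to 0.55. Without luciferase replicate 1 or 2 only CENPH and MAD2L1 stayed called, and without H3.Y replicate 1 only MAD2L1. All calls were lost without combined knockdown replicate 1 or 2. The ZWINT call was also lost without H3.Y replicate 2.

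**Figure D3:**
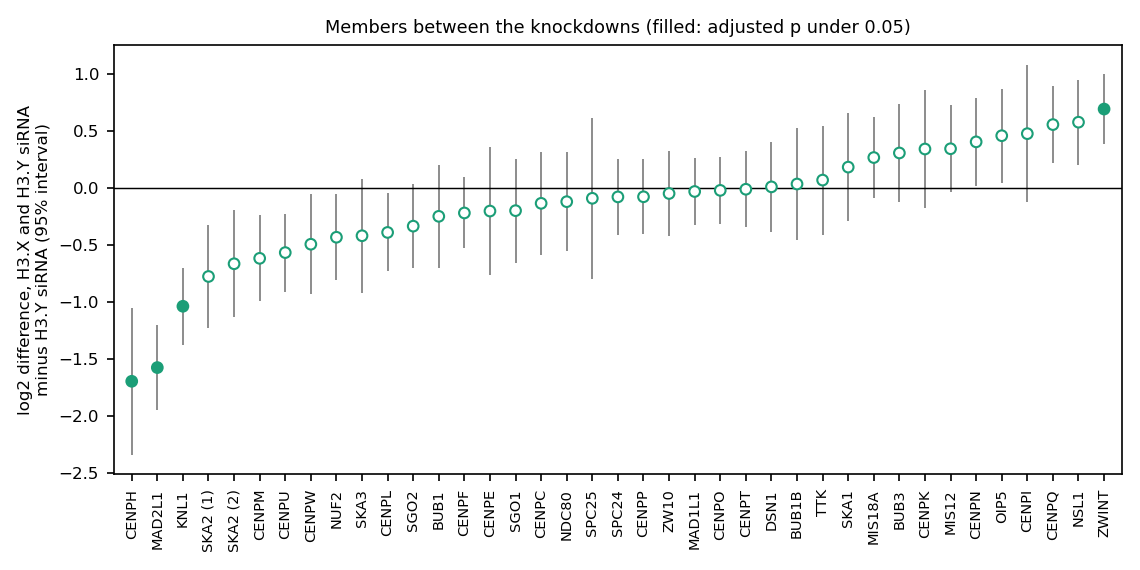
Log2 difference of the combined knockdown minus H3.Y siRNA (y axis, with 95% interval from the limma fit) for the 39 probe sets in order of size. The 4 filled points passed an adjusted p of 0.05, with CENPH, MAD2L1 and KNL1 at the low end and ZWINT at the high end.

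Further genes of the same pathway were read from lists of 56 measured genes on 59 probe sets. After H3.Y siRNA, 0 were called by limma in either direction. At an unadjusted p under 0.05, 16 were lower (7.66% of all probe sets) and 1 higher (6.21%). Their median difference was log2 -0.18, beside 0.02 over all probe sets. In the combined knockdown, 10 probe sets of 9 genes were called lower (0.985% of all) and 0 higher (0.859%), with a median of -0.39, beside 0.00. Between the combined knockdown and H3.Y siRNA, 8 were called lower (1.92% of all) and 0 higher (2.74%). Of the anaphase-promoting complex and its partners, 4 of 20 probe sets were called lower in the combined knockdown than with luciferase siRNA, beside 0.985% of all. CDC20, the activator that MAD2 blocks, read 9.59 and 9.97 log2 units after H3.Y siRNA, 8.92 and 8.96 in the combined knockdown, and 10.55 and 10.44 with luciferase siRNA. UBE2S, a ubiquitin-conjugating enzyme of the complex, fell by 1.52 and 1.29 on the log2 scale on 2 probe sets in the combined knockdown. CDC27, a core subunit, fell by 1.07 there.

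Of 11 cohesin and separase genes, 3 were called lower in the combined knockdown than with luciferase siRNA, beside 0.985% of all probe sets. STAG2, a cohesin subunit, read 7.51 and 7.26 log2 units after H3.Y siRNA, 5.67 and 5.79 in the combined knockdown, and 6.93 and 7.20 with luciferase siRNA. It fell by 1.33 ± 0.16 on the log2 scale in the combined knockdown and differed by 0.32 ± 0.16 after H3.Y siRNA, not called. SMC1A, another cohesin subunit, fell by 1.14, and PTTG1, the separase inhibitor securin, by 0.93. The mitotic kinase PLK1 fell by 1.01, and the spindle proteins KNSTRN and SPAG5 by 0.97 and 0.90. The chromosomal passenger complex, which corrects faulty attachments, had 0 of 6 probe sets called by limma in the combined knockdown. At an unadjusted p under 0.05, 3 were lower (8.12% of all probe sets), and AURKB differed by -0.48 there and 0.09 after H3.Y siRNA. In the list around ZW10, 0 of 10 were called in the combined knockdown by limma, 6 being lower at an unadjusted p under 0.05. KNTC1 differed by -0.90 after H3.Y siRNA and -0.53 in the combined knockdown. CENPV was called lower in the combined knockdown than after H3.Y siRNA, by log2 -1.10 ± 0.17, and CDC26 by -0.75 ± 0.14. Neither was called against luciferase siRNA. CENPV differed from it by 0.66 after H3.Y siRNA and -0.43 in the combined knockdown, and CDC26 by 0.27 and -0.48.

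General proliferation genes were read on the same arrays. The 10 measured ones, among them MKI67, TOP2A, PCNA and MCM2, had median differences of log2 -0.42 after H3.Y siRNA and -0.42 in the combined knockdown. Of them, 10 and 9 lay below 0, beside 46.6% and 49.8% of all probe sets. By limma 0 of them were called in either comparison, with 6 lower at an unadjusted p under 0.05 in each (7.66% and 8.12% of all probe sets). CDK1 was the 1 above 0 in the combined knockdown, at 0.26. Their part in the differences of the kinetochore genes was not tested.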

How the data were processed

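Affymetrix arrays gave 1 value per probe set and sample. The authors deposited log2 expression values, made with oligo per the submitters' processing notes, and the range of the values was the only source for the log base. For its version and settings and for a genome build, the answer is: not given in the sources used here. Array medians were close to equal, so a shift shared by the whole transcriptome cannot be seen.

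Groups came from the labels. Of 33297 probe sets, 19460 had exactly 1 gene symbol in the platform annotation, 1754 several and 12083 none. Of those with 1 symbol, 19429 had an Entrez ID found in RefSeq and took the RefSeq symbol, whether or not it differed. Comparisons used limma 3.58.1 in R 4.3.3 (lmFit, eBayes, 6 arrays, 1 mean per group, 3 residual and 3.43 prior degrees of freedom). Each of the 3 comparisons had its two-sided p-values corrected over the 33297 probe sets (Benjamini-Hochberg), with calls under 0.05 and no fold minimum. The procedure was run on simulated data with added changes and independent noise on each value, so shifts shared within an array were not simulated. Members and lists were chosen with earlier results of these data known, so no list was tested as a set. Values on each array are given for members called in any comparison and, in each of 6 groups, the 2 genes with the largest difference from luciferase. Genes outside the list of members are named where called, with up to 2 uncalled genes per list. Other settings tried were quantile normalization, median centring, filters on dim or unnamed probe sets, trended or robust eBayes, a replicate block, a fit to the 4 arrays of a comparison, and each array left out in turn. Sequences are RefSeq's.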

Additional observations from a re-analysis of the deposited data

How the results depend on the processing

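For H3.Y siRNA against luciferase siRNA, the 2 calls among the 39 probe sets became 1 with a replicate block (NSL1) and 1 after quantile normalization again. Without dim probe sets they stayed 2 (3.24% of all tested). They became 4 when only probe sets with 1 gene symbol were tested (4.26% of all tested, against 0.279% in the fit as reported). With only the 4 arrays compared they became 0 in limma (0% of all tested). For the combined knockdown against luciferase siRNA, the 6 calls became 14 without dim probe sets (8.66% of all tested), 15 with only 1-symbol probe sets (7.96%) and 10 with an intensity trend in eBayes (2.88%), against 1.84% in the fit as reported. Between the combined knockdown and H3.Y siRNA, the 4 calls became 7 without dim probe sets (15.5% of all tested), 10 with only 1-symbol probe sets (14%) and 2 with only the 4 arrays compared (1.35%), against 4.67%. Leaving out 1 array at a time gave 0 to 2, 0 to 8 and 0 to 4 calls in the 3 comparisons, and median differences of log2 -0.55 to -0.34, -0.59 to -0.46 and -0.19 to -0.03. The median in the combined knockdown was -0.47 after quantile normalization again. No called difference changed direction under these alternatives. Of the uncalled, those that did so when 1 array was left out ran as follows, and 0 did so under the other alternatives. After H3.Y siRNA against luciferase siRNA, 4 did, CENPP from -0.085 to 0.11, CENPT from -0.088 to 0.14, MAD1L1 from -0.016 to 0.040 and SPC24 from -0.023 to 0.065. In the combined knockdown against luciferase siRNA, 9 did, CENPI from -0.60 to 0.056, CENPK from -0.20 to 0.32, CENPP from -0.16 to 0.037, CENPT from -0.020 to 0.051, MAD1L1 from -0.032 to 2e-04, MIS12 from -0.30 to 0.009, MIS18A from -0.10 to 0.15, SKA1 from -0.36 to 0.11 and SPC24 from -0.17 to 0.060. Between the combined knockdown and H3.Y siRNA, 12 did, BUB1B from -0.10 to 0.18, CENPC from -0.34 to 0.079, CENPE from -0.42 to 0.017, CENPT from -0.12 to 0.10, DSN1 from -0.15 to 0.17, MAD1L1 from -0.056 to 5e-04, NDC80 from -0.30 to 0.062, SKA1 from -0.052 to 0.42, SPC24 from -0.19 to 0.039, SPC25 from -0.37 to 0.19, TTK from -0.082 to 0.23 and ZW10 from -0.20 to 0.11. Same-numbered arrays share only a number in the labels, and their deviations correlated at 0.22, 0.28 and 0.12. The replicate block gave 1, 9 and 4 calls. After H3.Y siRNA it lost ZWINT (limma adjusted p = 0.055). In the combined knockdown against luciferase siRNA it lost SKA2 (0.051) and added NDC80, BUB1 (0.032), CENPE and SGO2 (0.049). Fewer residual degrees of freedom, or fewer probe sets to adjust over, are part of how these settings are built, and other causes were not tested.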

Other observations

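The replicate number moved with the kinetochore genes in 2 of the 3 groups. On luciferase replicate 1, 36 of the 39 probe sets lay below the mean of both luciferase arrays, so replicate 2 was higher for these. Over all 33297 probe sets, 15919 lay below that mean on replicate 1. The median of replicate 2 minus replicate 1 over the 39 was log2 0.16 in the combined knockdown, -0.03 after H3.Y siRNA and 0.22 with luciferase siRNA. Without luciferase replicate 2, the median difference of the 39 after H3.Y siRNA was -0.34, and without luciferase replicate 1 it was -0.55.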
